A study of Vigna subterranea with 10 samples.

Results

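A set of 57 soybean array probe sets had higher signal in leaflets of bambara groundnut at each colder temperature. Each averaged at least 10 in log2 value over 9 arrays, and its lowest value at 23 °C exceeded its highest value at 27 °C, as its lowest value at 18 °C exceeded its highest value at 23 °C. The mean at 18 °C also had to lie at least 1 above the mean at 27 °C and at least 0.3 above the mean at 23 °C. The 57 members made up 0.156% of the 36578 soybean probe sets of the table and 0.812% of the 7017 that averaged at least 10. A probe set stands for a gene here, except that 2 pairs of members shared a gene. The same rule turned round, for values that were lower at each colder temperature, held 39 probe sets.

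RNA of the genotype S19-3 of bambara groundnut (Vigna subterranea), a seed legume grown in Africa, was hybridised to the Soybean GeneChip of Affymetrix, whose short probes were designed on another legume. Single fully-expanded leaflets were taken from the same 3 plants, kept under a 12-hour photoperiod, at 18 °C (very sub-optimal), at 23 °C (sub-optimal) and at 27 °C (optimal), with 3 arrays at each temperature. The plants met these temperatures in the reverse order, 27 °C first and 18 °C last, so temperature cannot be told apart from sampling order, plant age or earlier leaflet removal. The sources give different lengths of stay at each temperature and do not tie the replicate numbers to plants, and no duration or plant identity is used for that reason. The values are log2 expression values made by RMA. Of all values 1312 were above 16 and 1434 were below 0, beyond the log2 of a 16-bit scan, so a further unknown step lies behind them and differences in log2 value may not be true log2 fold changes. Each array measured a whole leaflet, so a change in the share of a cell type and a change in its RNA per cell cannot be told apart.

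Bambara groundnut is a crop of warm climates, and cool conditions touch many leaf functions. Phosphate that is locked in esters can be released by secreted or intracellular phosphatases, and plants read their phosphate status through small SPX domain proteins that bind inositol pyrophosphates and hold back the transcription factors of the phosphate starvation programme. Aquaporins of the PIP type let water through the plasma membrane, callose synthases lay down a glucan at plasmodesmata and wounds, and beta-amylases cut maltose from starch. GIGANTEA links the circadian clock to day length, and ACC oxidase, long called ethylene-forming enzyme, makes the gas ethylene in the last step of its pathway. All of these were among the members.

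Because the rule used every array and all 3 contrasts, the members' values are given as a description, and counts of calls among them support nothing. Of the members 40 had a usable name, 6 through a symbol of the array annotation (PIP2-6, NRP-A, BMY2, SABATH1, PK3 and CYSTATIN) and 34 only through the study's annotation, which covers probe sets that the study picked as changed on these same arrays, so the kinds of genes among them are not independent evidence of a direction. Names were available for 6.12% of all probe sets. Across species a probe set can take up signal from several genes of a family, and 19.3% of the members were of the type (suffix _s_at) designed to match several transcripts, against 8.84% of all probe sets.

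The members' mean log2 values lay between 11.13 and 16.95 at 18 °C (median 13.36), between 9.99 and 16.46 at 23 °C (median 12.59) and between 6.24 and 15.39 at 27 °C (median 11.24). The difference between 18 °C and 27 °C ran from 1.04 to 7.96 with a median of 1.67. The median was -0.06 over all probe sets and 0.05 over those averaging at least 10. It reached 4 in 6 members and 2 in 21, and it stayed under 1.5 in 22. The difference between 23 °C and 27 °C had a median of 0.87 (range 0.21 to 6.36) and that between 18 °C and 23 °C a median of 0.93 (range 0.44 to 2.88).

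Because the rule required a rise in both steps, probe sets that changed in a single step only could not be members. The split between the steps is thus partly set by the rule and is given as a description. Among the members neither step carried the bulk of the change. The share of the 18 °C to 27 °C difference already present at 23 °C had a median of 52.4% and ran from 17.9% for Tom7, a subunit of the mitochondrial import pore, to 85.3% for an unnamed probe set. The step between 23 °C and 27 °C was the larger in 29 members and the step between 18 °C and 23 °C in 28. Since these steps spanned 4 °C and 5 °C, the median difference per degree was 0.217 between 23 °C and 27 °C and 0.187 between 18 °C and 23 °C, and 36 members were steeper per degree in the warmer step.

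**Figure D1:**
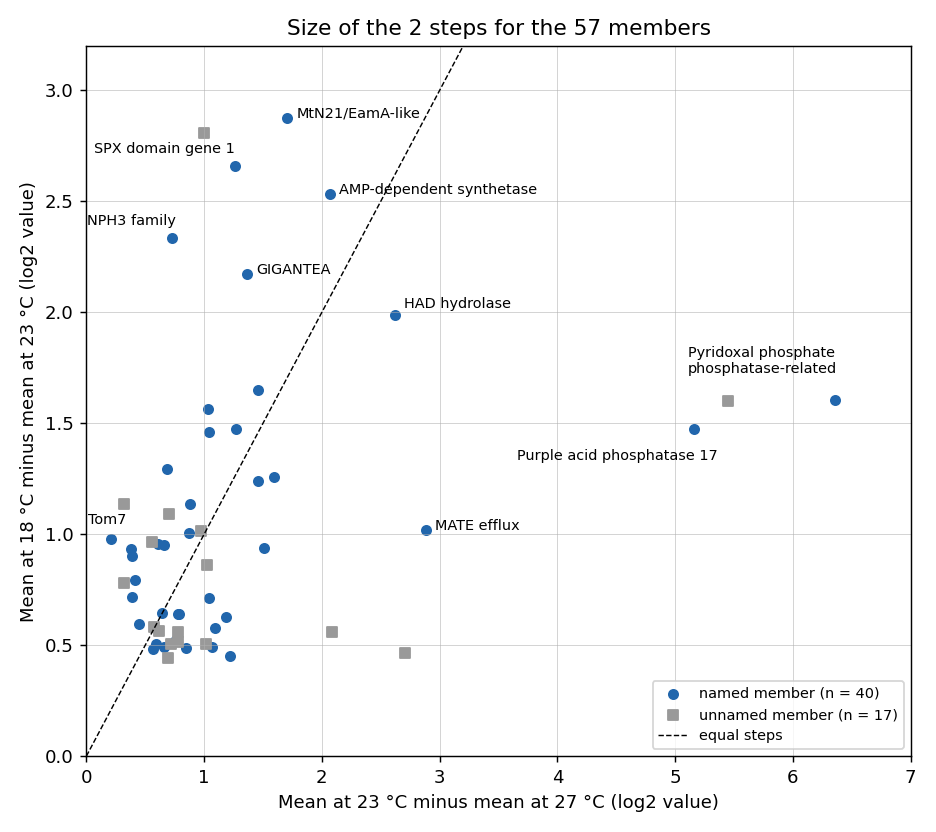
Each point is a member, placed by the mean at 23 °C minus the mean at 27 °C (horizontal, log2 value) and the mean at 18 °C minus the mean at 23 °C (vertical, log2 value); blue circles are named and grey squares unnamed, and the dashed line marks equal steps. Points fall on both sides of the line (29 below it, 28 above), with 2 phosphatases and an unnamed member far to the right and the MtN21/EamA-like transporter, an unnamed member, SPX domain gene 1, the AMP-dependent synthetase and the NPH3 family member highest on the left.

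The gaps between temperatures were often small. The lowest value at 18 °C stood above the highest at 23 °C by a median of 0.28 (range 0.016 to 2.56), and the lowest at 23 °C stood above the highest at 27 °C by a median of 0.32 (range 0.011 to 4.70). In 19 members a gap was under 0.1 in at least a single step, and 11 members had gaps of at least 0.5 in both. The rule's limits cut through a continuous range. Just inside the limit on the 18 °C to 27 °C difference lay a CBS family protein at 1.04 and a TRAF-type zinc finger protein at 1.05, and just outside it a class-II DAHP synthetase at 0.993. GIGANTEA, at a mean of 10.26, was the nearest above the limit on level, and a second probe set of multidrug resistance-associated protein 14 was the nearest below it at 9.987. The aquaporin plasma membrane intrinsic protein 2;4 had a gap of 0.0211 between 18 °C and 23 °C, and heptahelical protein 5, with a gap of -0.0094 between 23 °C and 27 °C, just missed the rule.

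In the limma fit with a variance trend, across all probe sets, 16 of 57 members were called higher at 23 °C than at 27 °C, where 0.435% of all probe sets and 2.15% of those averaging at least 10 were. At 18 °C over 27 °C 55 of 57 were called, beside 1.28% and 5.79%, and at 18 °C over 23 °C 13 of 57, beside 0.55% and 2.55%. Without overlap of the groups, 7.3% of all probe sets were higher at 23 °C than at 27 °C, 8.96% at 18 °C than at 27 °C and 7.78% at 18 °C than at 23 °C (14.6%, 22% and 18.2% of those averaging at least 10), and 0.454% (1.71%) in both steps. These contrasts chose the members, so nothing is read from the counts. With 1 common prior variance limma called 0, 9 and 0 members, beside 0%, 0.0601% and 0% of all probe sets (30, 57 and 31 members at an unadjusted p under 0.05, beside 3.8%, 5.12% and 3.83% of all probe sets higher).

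Genes of phosphate release and phosphate sensing, counting a hydrolase known only by its family name, gave 4 members, with differences between 18 °C and 27 °C of 3.93 to 7.96. A pyridoxal phosphate phosphatase-related probe set, whose closest Arabidopsis gene encodes a phosphatase for phosphocholine and phosphoethanolamine, read 14.81, 15.19 and 15.66 at 18 °C, 14.30, 12.99 and 13.55 at 23 °C and 5.55, 8.30 and 7.93 at 27 °C. Its means were 7.96 ± 0.60 apart between 18 °C and 27 °C (log2 value ± SE), and 79.8% of that was present at 23 °C. Purple acid phosphatase 17, of a metal-containing family that frees phosphate from organic esters, read 14.01, 14.40 and 14.71 at 18 °C, 13.29, 11.96 and 13.45 at 23 °C and 6.70, 7.36 and 9.16 at 27 °C, with 77.8% of its 6.63 ± 0.56 difference present at 23 °C. For both phosphatases the 3 leaflets at 27 °C were the most scattered, and the gap between the highest of them and the lowest at 23 °C was 4.70 for the pyridoxal phosphate phosphatase-related probe set and 2.79 for purple acid phosphatase 17.

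A haloacid dehalogenase-like (HAD) hydrolase, of a large family of phosphatases and related enzymes, stepped more evenly. Its values were 14.40, 14.65 and 14.82 at 18 °C, 12.81, 12.73 and 12.36 at 23 °C and 10.49, 9.92 and 9.64 at 27 °C, a difference of 4.61 ± 0.23 between 18 °C and 27 °C of which 56.8% was present at 23 °C. SPX domain gene 1 had the other order of steps. It read 13.66, 13.79 and 14.38 at 18 °C, 11.60, 10.96 and 11.28 at 23 °C and 9.99, 9.68 and 10.37 at 27 °C, so that 32.2% of its 3.93 ± 0.26 difference was present at 23 °C. The 2 phosphatases with the widest differences thus differed mainly between 23 °C and 27 °C and the SPX gene mainly between 18 °C and 23 °C. Most values of these 2 phosphatases at 27 °C lay below the array medians of 8.05 to 8.11 there. The size of their warmer step, and the share present at 23 °C, therefore rest on dim signal.

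**Figure D2:**
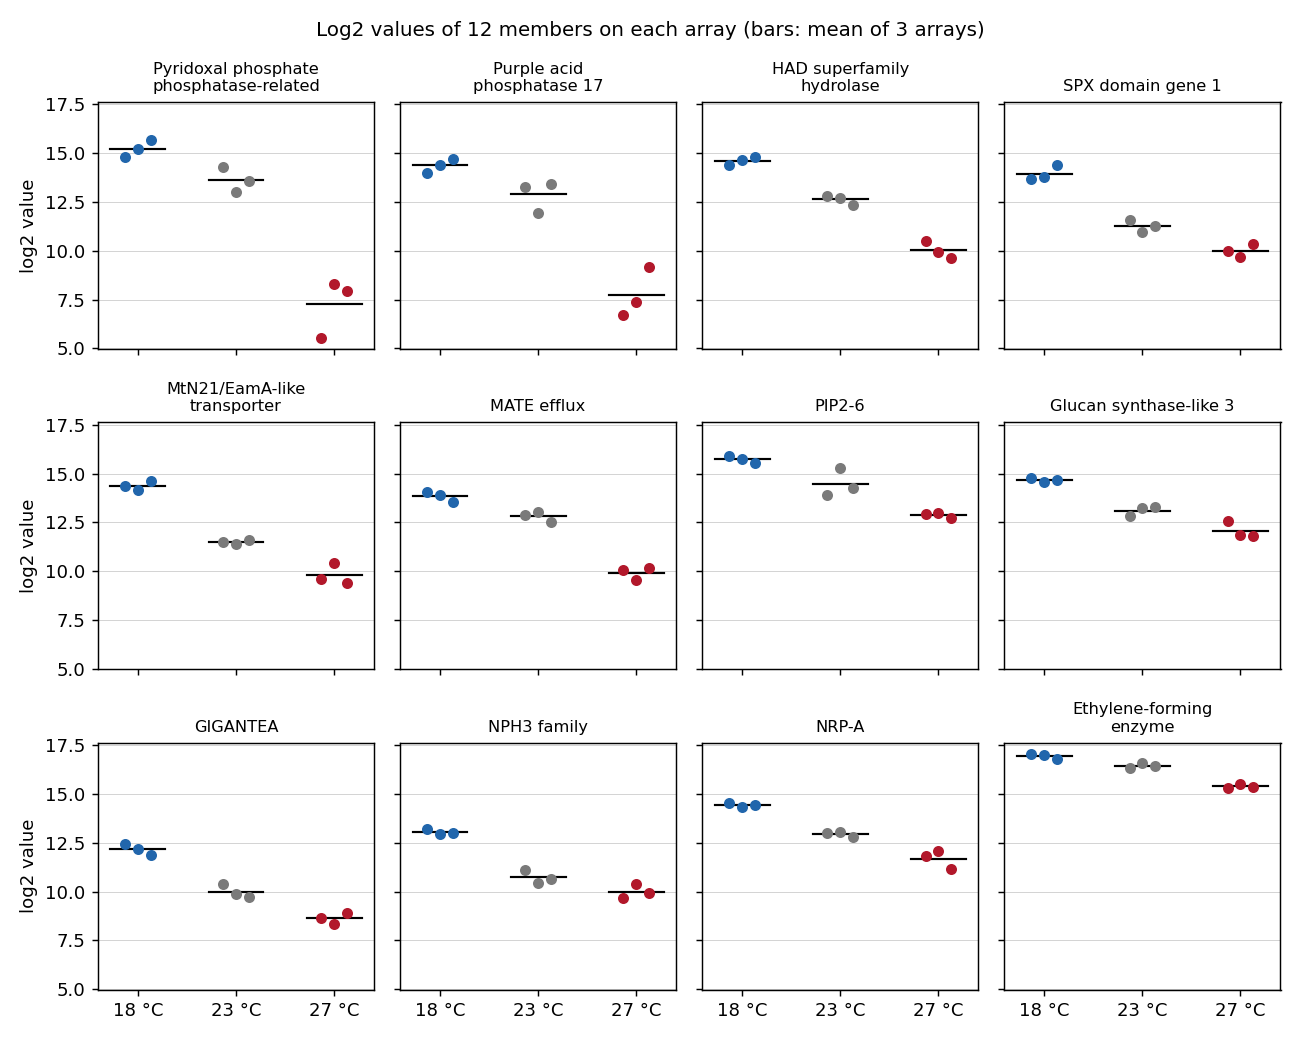
Log2 values (vertical) of 12 members on each of the 9 arrays at 18 °C, 23 °C and 27 °C (horizontal, 3 arrays each), with black bars for the means. In every panel the 3 groups do not overlap, as the rule requires, and the pyridoxal phosphate phosphatase-related probe set and purple acid phosphatase 17 have the lowest and most scattered values at 27 °C.

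Of 26 probe sets matched by words for phosphate metabolism, 17 of them annotated by the study, 9 were called higher at 18 °C than at 27 °C and 0 lower, and 4 of the 9 are members. Several of the 9 carry only the general name of the HAD hydrolase superfamily, which is not particular to phosphate metabolism. A pair of these share a transcript cluster. Over all probe sets 1.28% were called higher and 0.845% lower at 18 °C than at 27 °C. At 23 °C over 27 °C these shares were 0.435% and 0.342%, and at 18 °C over 23 °C 0.55% and 0.394%. Part of each list was named by the study's annotation of probe sets picked as changed on these same arrays. Nothing is read from the list counts here or below for that reason. In the phosphate list 8 were called higher and 1 lower at 23 °C over 27 °C, and at 18 °C over 23 °C 3 higher and 1 lower. The list's median difference between 18 °C and 27 °C was 0.72. Phosphate transporter 3;3, a carrier of the mitochondrial inner membrane, averaged 14.08 at 18 °C, 14.09 at 23 °C and 13.14 at 27 °C, so that its rise was as large at 23 °C as at 18 °C (0.95 ± 0.14 over 27 °C, adjusted p = 0.0125). A further HAD hydrolase averaged 16.25, 16.36 and 14.57 at 18 °C, 23 °C and 27 °C. Not every phosphatase of the list was higher in the cold: PAP14 was at 12.98 at 18 °C, 10.95 at 23 °C and 12.62 at 27 °C, and its fall by 1.67 ± 0.24 at 23 °C was called (adjusted p = 0.0113).

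Transporters and channels gave 7 named members, whose differences between 18 °C and 27 °C ran from 1.43 to 4.58 (median 2.70). The widest was a nodulin MtN21/EamA-like transporter, of a family that moves amino acids and other small molecules in Arabidopsis. It read 14.35, 14.15 and 14.63 at 18 °C, 11.51, 11.41 and 11.58 at 23 °C and 9.60, 10.41 and 9.37 at 27 °C. Its leaflets at 23 °C were within 0.17 of each other and stood 2.56 below the lowest at 18 °C, the widest gap between these temperatures in the set.

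A MATE efflux protein, whose closest Arabidopsis gene exports citrate, moved mostly in the warmer step. Its values were 14.04, 13.88 and 13.56 at 18 °C, 12.87, 13.05 and 12.51 at 23 °C and 10.08, 9.54 and 10.16 at 27 °C, and 73.8% of the 3.90 ± 0.22 difference was present at 23 °C. Amino acid permease 7 read 12.86, 12.62 and 11.94 at 18 °C, 11.60, 11.90 and 11.11 at 23 °C and 9.96, 10.29 and 9.82 at 27 °C, with no overlap between neighbouring temperatures but a gap of only a few hundredths between 18 °C and 23 °C. Multidrug resistance-associated protein 14, an ABC transporter, differed by 2.70 ± 0.29 between 18 °C and 27 °C and an ABC-2 type transporter by 1.43 ± 0.17.

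Of the 2 aquaporins, PIP2-6 read 15.90, 15.74 and 15.54 at 18 °C, 13.90, 15.28 and 14.24 at 23 °C and 12.93, 12.96 and 12.73 at 27 °C, a difference of 2.86 ± 0.28 between 18 °C and 27 °C. The second leaflet at 23 °C lay close to the 18 °C values, above the other leaflets of its temperature. Plasma membrane intrinsic protein 2;4 read 13.14, 13.46 and 12.95 at 18 °C, 12.09, 12.93 and 12.40 at 23 °C and 11.62, 11.73 and 10.96 at 27 °C, and the second leaflet at 23 °C again came closest to 18 °C.

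Among 57 probe sets of transporters and channels, 26 annotated by the study, calls went both ways. At 18 °C over 27 °C 14 were higher, 7 of them members, and 7 were lower, beside 1.28% and 0.845% of all probe sets. The 7 lower ones included PIP1-6, at 9.42, 10.67 and 11.33 at 18 °C, 23 °C and 27 °C (18 °C minus 27 °C -1.91 ± 0.31, adjusted p = 0.00938). They also included a delta tonoplast integral protein, a water channel of the vacuole, at 13.05, 15.34 and 15.22 (-2.16 ± 0.27, adjusted p = 0.00219). A second MATE efflux protein was lower too, at 9.83, 10.58 and 12.43. PIP2-9 was called higher at 23 °C than at 27 °C by 1.34 ± 0.23 (adjusted p = 0.0221), and its mean at 18 °C was 14.17 beside 15.03 at 23 °C and 13.69 at 27 °C.

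Enzymes of sugars, sugar nucleotides and wall polymers gave 6 members with smaller differences, from 1.11 to 2.59 between 18 °C and 27 °C, and in 5 of the 6 the step between 18 °C and 23 °C was the larger. Glucan synthase-like 3, a callose synthase, read 14.75, 14.56 and 14.69 at 18 °C, 12.83, 13.22 and 13.27 at 23 °C and 12.56, 11.84 and 11.82 at 27 °C, with 39.7% of its 2.59 ± 0.21 difference present at 23 °C. BMY2, a beta-amylase, read 13.23, 13.58 and 12.43 at 18 °C, 12.02, 12.35 and 11.46 at 23 °C and 10.87, 11.09 and 11.23 at 27 °C. The third-numbered leaflet was the lowest of BMY2 at both 18 °C and 23 °C and the highest at 27 °C, though the numbers do not tie leaflets to plants.

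Other enzymes of this group handle UDP-sugars. UDP-glucose pyrophosphorylase 2, which makes UDP-glucose, read 15.15, 15.19 and 15.29 at 18 °C, 14.45, 14.74 and 14.53 at 23 °C and 13.91, 13.77 and 13.70 at 27 °C. Its values inside a temperature were no more than 0.29 apart. A UDP-glucose 4-epimerase-like protein of the Rossmann-fold superfamily, whose closest Arabidopsis gene makes the arabinose donor for the wall, differed by 1.87 ± 0.26 between 18 °C and 27 °C. A pfkB-type fructokinase differed by 1.29 ± 0.21 and N-acetylglucosamine-1-phosphate uridylyltransferase 1, which makes a UDP-amino sugar, by 1.11 ± 0.16.

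Of 36 probe sets of carbon metabolism, 22 annotated by the study, 18 were called higher at 18 °C than at 27 °C, 2 of them members. A further 3 were called lower, with a list median of 0.89, beside 1.28% higher and 0.845% lower of all probe sets. At 18 °C over 23 °C 10 were called higher and 0 lower (0.55% and 0.394% of all probe sets). At 23 °C over 27 °C 4 were higher and 1 lower (0.435% and 0.342%). The non-members show both a late and an early course: MDH-1, a malate dehydrogenase, averaged 13.53, 10.14 and 9.32 at 18 °C, 23 °C and 27 °C, and phosphofructokinase 7, of glycolysis, averaged 11.84, 11.57 and 9.46. Alpha-glucan phosphorylase 2 was read by 2 probe sets that went opposite ways, 3.28 ± 0.21 at the first (adjusted p = 3.36e-05) and a fall by 0.91 ± 0.14 at the other (adjusted p = 0.00573). Of 21 cell wall probe sets, 13 were annotated by the study. At 18 °C over 27 °C 8 were called higher, including the callose synthase, and 0 lower, beside the same 1.28% and 0.845%.

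The members linked to light and the clock were GIGANTEA and a phototropic-responsive NPH3 family protein, of a plant family of BTB/POZ proteins that acts with phototropins. GIGANTEA read 12.44, 12.19 and 11.86 at 18 °C, 10.38, 9.88 and 9.72 at 23 °C and 8.65, 8.35 and 8.88 at 27 °C. The NPH3 family protein read 13.21, 12.96 and 13.003 at 18 °C, 11.09, 10.43 and 10.65 at 23 °C and 9.67, 10.36 and 9.95 at 27 °C. Both moved more in the colder step, with 38.6% (GIGANTEA) and 23.8% (NPH3 family) of the difference present at 23 °C, and the NPH3 values at 23 °C barely cleared those at 27 °C.

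Of 15 clock and photoperiod probe sets, 9 were annotated by the study. At 18 °C over 27 °C 5 were called higher, GIGANTEA among them, and 3 lower, beside 1.28% and 0.845% of all probe sets. Pseudo-response regulator 5, a clock repressor, averaged 12.06, 9.44 and 7.996 at 18 °C, 23 °C and 27 °C (18 °C minus 27 °C 4.07 ± 0.47, adjusted p = 0.00129). Its relative pseudo-response regulator 7 averaged 10.43, 9.75 and 12.31, and its fall by 1.88 ± 0.24 at 18 °C against 27 °C was called (adjusted p = 0.00224). The hour of sampling is not given in the sources used here.

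Genes of defence, stress and hormones formed a group of 8 named members. Ethylene-forming enzyme read 17.06, 17.01 and 16.78 at 18 °C, 16.33, 16.59 and 16.46 at 23 °C and 15.31, 15.52 and 15.34 at 27 °C. Of its 1.56 ± 0.11 difference 68.5% was present at 23 °C and the gap between 18 °C and 23 °C was 0.19. NRP-A, an N-rich protein of soybean tied to stress-induced cell death, read 14.54, 14.34 and 14.42 at 18 °C, 13.02, 13.05 and 12.81 at 23 °C and 11.82, 12.09 and 11.17 at 27 °C.

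A homolog of the carrot EP3-3 chitinase, which cuts chitin, read 12.79, 12.15 and 12.72 at 18 °C, 11.14, 11.06 and 11.09 at 23 °C and 9.97, 9.85 and 10.35 at 27 °C. Its 3 leaflets at 23 °C were within 0.08 of each other. SABATH1, of a family of methyltransferases for salicylic acid, jasmonic acid and related small acids, read 13.19, 12.86 and 12.68 at 18 °C, 12.65, 12.31 and 12.43 at 23 °C and 11.56, 11.40 and 10.76 at 27 °C, and 72.9% of its 1.67 ± 0.23 difference was present at 23 °C. The lowest SABATH1 leaflet at 18 °C and the highest at 23 °C differed by only 0.04. The remaining 4 were BAX inhibitor 1, a suppressor of cell death at the endoplasmic reticulum (1.27 ± 0.14 between 18 °C and 27 °C), CYSTATIN, an inhibitor of cysteine proteases (1.21 ± 0.18), a glutathione S-transferase (1.31 ± 0.15) and the secreted peptide ralf-like 33 (1.33 ± 0.24).

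The ethylene list held 15 probe sets, 5 of them annotated by the study. At 18 °C over 27 °C 5 were called higher and 0 lower, with a median of 0.87, beside 1.28% and 0.845% called of all probe sets. Of the 5 calls 3 were the probe sets of ethylene-forming enzyme and 2 were a eukaryotic release factor of translation, caught by the letters ERF, which has no part in ethylene. The list of methyltransferases and phenolics, with 12 probe sets annotated by the study, had 9 of 111 called higher and 2 lower in that contrast. SABATH1 was among the higher, and the shares over all probe sets were the same 1.28% and 0.845%.

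The AMP-dependent synthetase and ligase member, whose closest Arabidopsis gene joins oxalate to coenzyme A, read 13.98, 14.33 and 12.69 at 18 °C, 10.75, 12.21 and 10.44 at 23 °C and 9.14, 8.70 and 9.35 at 27 °C. Its 4.60 ± 0.49 difference was among the widest, but its leaflets at 18 °C spread over 1.64. Vacuolar sorting receptor 6, which carries soluble proteins to the vacuole, read 14.87, 14.12 and 14.59 at 18 °C, 12.15, 13.98 and 12.50 at 23 °C and 11.49, 11.46 and 11.30 at 27 °C. As with PIP2-6, the second leaflet at 23 °C lay near the 18 °C values. A pyridoxal phosphate-dependent transferase, whose closest Arabidopsis gene breaks down gamma-aminobutyric acid, differed by 1.98 ± 0.24 between 18 °C and 27 °C, nucleosome assembly protein 1;2, a histone chaperone, by 1.81 ± 0.20 and nicotinate phosphoribosyltransferase 2, of NAD salvage, by 1.61 ± 0.25.

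A pair of members matched subunits of the RNA polymerase that Arabidopsis encodes in its chloroplast genome. The DNA-directed RNA polymerase family member read 15.99, 15.50 and 15.77 at 18 °C, 15.31, 15.04 and 15.20 at 23 °C and 13.72, 14.25 and 14.30 at 27 °C. RNA polymerase subunit beta read 13.87, 13.38 and 13.39 at 18 °C, 12.74, 12.45 and 12.58 at 23 °C and 11.60, 12.27 and 12.09 at 27 °C. In both the first-numbered leaflet was the lowest at 27 °C and the highest at 18 °C, though the numbers do not tie leaflets to plants. Among the other names, a single one was matched to an Arabidopsis chloroplast gene, an NADH-plastoquinone oxidoreductase subunit, and it averaged 12.96, 12.81 and 11.90 at 18 °C, 23 °C and 27 °C (18 °C minus 27 °C 1.07 ± 0.15, adjusted p = 0.0047). NDHK, named by the array symbol and another subunit of that complex encoded in the chloroplast, averaged 15.68, 15.53 and 14.47 on a probe set that differed by 1.202 ± 0.195 between 18 °C and 27 °C (adjusted p = 0.00893), while its probe set of the other orientation averaged 5.53, 6.03 and 5.10 and was not called.

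The further named members were Tom7 (1.19 ± 0.10 between 18 °C and 27 °C), an iron-sulphur cluster assembly protein (1.10 ± 0.15), RING-box 1, a subunit of cullin ubiquitin ligases (1.16 ± 0.18), PK3 (1.28 ± 0.15), the TRAF-type zinc finger protein (1.05 ± 0.20) and the CBS family protein (1.04 ± 0.20). Tom7 was the clearest case of a late difference, with values of 15.65, 15.86 and 15.75 at 18 °C against 14.85, 14.69 and 14.78 at 23 °C and 14.51, 14.51 and 14.66 at 27 °C. No list member of the transcription factors other than the TRAF-type protein met the rule, out of 367 probe sets, and none of the lists of membrane lipids (25 probe sets), of protein kinases and calcium (26) or of plastid electron transport and pigments (35) held a member. Members were 0.156% of all probe sets and 0.812% of those averaging at least 10. Lists this short could thus hold none at that share, and nothing is read from their absence. Of 88 protein turnover probe sets, which include RING-box 1, 27 were called higher and 15 lower at 18 °C than at 27 °C. Over all probe sets these shares were 1.28% and 0.845%. The transcription factors had 11 higher and 4 lower calls, the kinases and calcium genes 5 and 4, and the membrane lipid genes 5 and 1. In the plastid list 22 probe sets were called lower and 4 higher at 18 °C than at 27 °C, with a median of -0.90. The study annotated 73 of the turnover, 35 of the transcription factor and 19 of the kinase and calcium probe sets. It also annotated 13 of the membrane lipid and 24 of the plastid probe sets. That annotation covers probe sets picked as changed on these same arrays, so nothing is read from these counts.

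**Figure D3:**
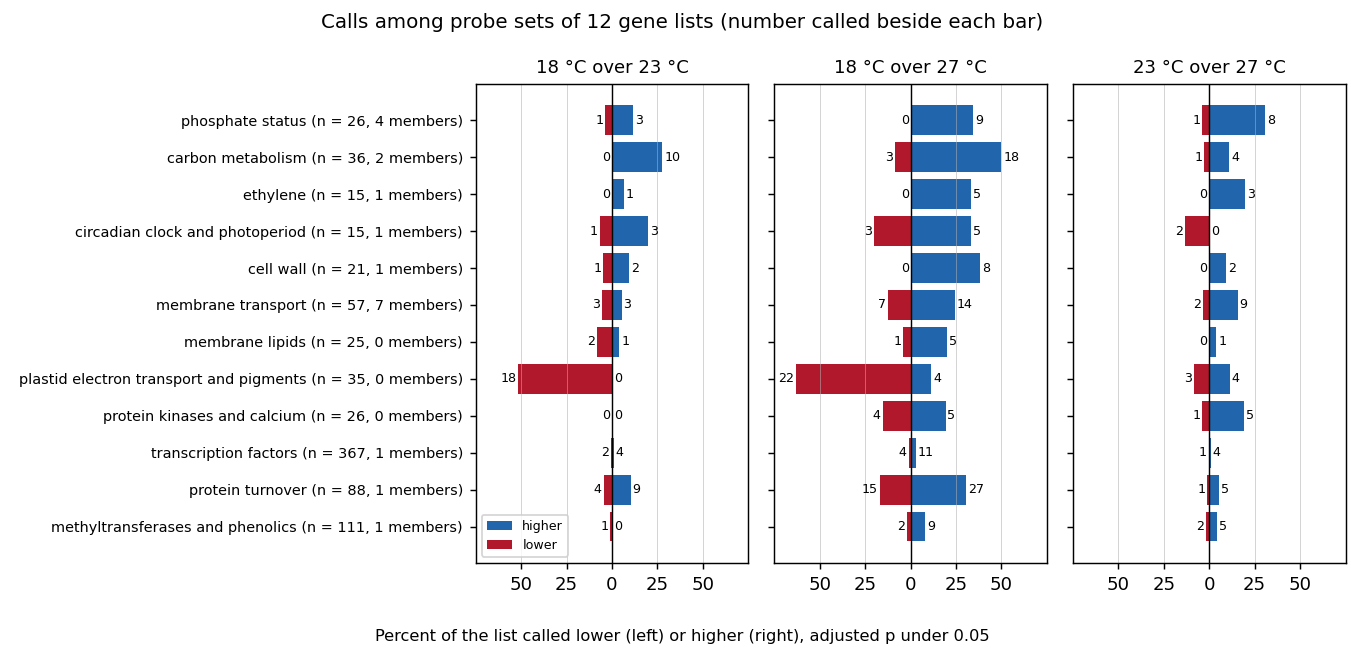
Share of the probe sets of 12 gene lists called higher (blue, right) or lower (red, left) in the variance-trend limma fit, in percent of the list, for 18 °C over 23 °C, 18 °C over 27 °C and 23 °C over 27 °C, with the number called beside each bar. The phosphate, cell wall and ethylene lists have 9, 8 and 5 higher calls and 0 lower at 18 °C over 27 °C, while the plastid list has 22 lower calls. Of all probe sets 1.28% are called higher there and 0.845% lower. Of the 5 ethylene calls 2 are a release factor of translation and 3 are probe sets of ethylene-forming enzyme. The phosphate calls include general HAD hydrolase names. Many listed probe sets were named by the study's annotation of probe sets it picked as changed.

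The 17 unnamed members spanned nearly the whole range, from 1.10 to 7.05 between 18 °C and 27 °C. The unnamed member with the widest difference read 13.54, 13.38 and 12.95 at 18 °C, 11.44, 11.63 and 11.99 at 23 °C and 8.21, 3.28 and 7.22 at 27 °C, and its values at 27 °C spread over 4.93. The next widest read 13.35, 14.88 and 16.41 at 18 °C, 11.93, 12.55 and 11.73 at 23 °C and 11.65, 10.87 and 10.68 at 27 °C. Its leaflets at 18 °C were spread over 3.06, and its gaps between temperatures were far smaller than its differences of means.

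Other probe sets that carry the same transcript cluster number (clusters of up to 10 probe sets), gene ID or soybean locus as a member, and that the rule did not select, give a second reading of a gene on the same RNA. There were 33 of them for 22 members. In the variance-trend limma fit 7 of the 33 were called higher at 18 °C than at 27 °C and 0 lower, where 1.28% of all probe sets were called higher. At 23 °C over 27 °C 2 of 33 were called higher, beside 0.435%. At 18 °C over 23 °C 0 of 33 were called, beside 0.55%, with 10 higher and 2 lower at an unadjusted p under 0.05 in that fit (5.14% of all probe sets were higher), 5 and 2 with a common prior variance (3.83%) and 4 and 1 by the methods' t-test (4.69%). A probe set that met the rule could not be in this group, which lowers its counts. Among the 10 that themselves averaged at least 10, all 10 differences were above 0 in each of the 3 contrasts and 5 were called higher at 18 °C than at 27 °C, where 5.79% of all probe sets that bright were. The median difference of all probe sets that bright was 0.05 for 18 °C over 27 °C, 0.04 for 18 °C over 23 °C and 0.008 for 23 °C over 27 °C. Most of the 10 carry the member's own transcript cluster number and may share target sequence with it, so they are not independent of the rule.

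Ethylene-forming enzyme, BMY2, NRP-A and 2 transport genes had called second readings. The 2 other probe sets of ethylene-forming enzyme averaged 15.37, 14.87 and 13.55 and 16.58, 16.06 and 14.87 at 18 °C, 23 °C and 27 °C, and differed between 18 °C and 27 °C by 1.82 ± 0.20 (adjusted p = 0.000928) and 1.71 ± 0.16 (adjusted p = 0.000391). A second BMY2 probe set differed by 2.66 ± 0.43 (adjusted p = 0.00915) and a second one of plasma membrane intrinsic protein 2;4 by 1.67 ± 0.29 (adjusted p = 0.0123). The second readings of NRP-A and multidrug resistance-associated protein 14, both averaging under 10, differed by 2.61 ± 0.50 (adjusted p = 0.0221) and 1.53 ± 0.28 (adjusted p = 0.0178).

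Other second readings fell short of a call or went another way. GIGANTEA's second probe set averaged 10.54, 7.91 and 6.48 at 18 °C, 23 °C and 27 °C and differed by 4.07 ± 0.94 between 18 °C and 27 °C without passing the test (adjusted p = 0.0546). A further BMY2 probe set differed by -1.99 ± 1.28 and one of the AMP-dependent synthetase by -1.81 ± 1.09, while another of that synthetase differed by 2.41 ± 1.18, none of them called. Both further probe sets of the plastid RNA polymerase beta subunit were higher by 0.93 and 1.06 without a call. PIP2-6 had 4 other probe sets under its gene ID, averaging between 7.98 and 8.81 at 18 °C against 7.70 to 10.19 at 27 °C, with differences of -1.38, -0.33, 0.23 and 0.28, none of them called. The sources used here do not show which bambara groundnut aquaporin each of the 5 probe sets bound. The companion of the MtN21/EamA-like member differed by -0.19 without a call, at 9.49, 9.62 and 9.68.

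**Figure D4:**
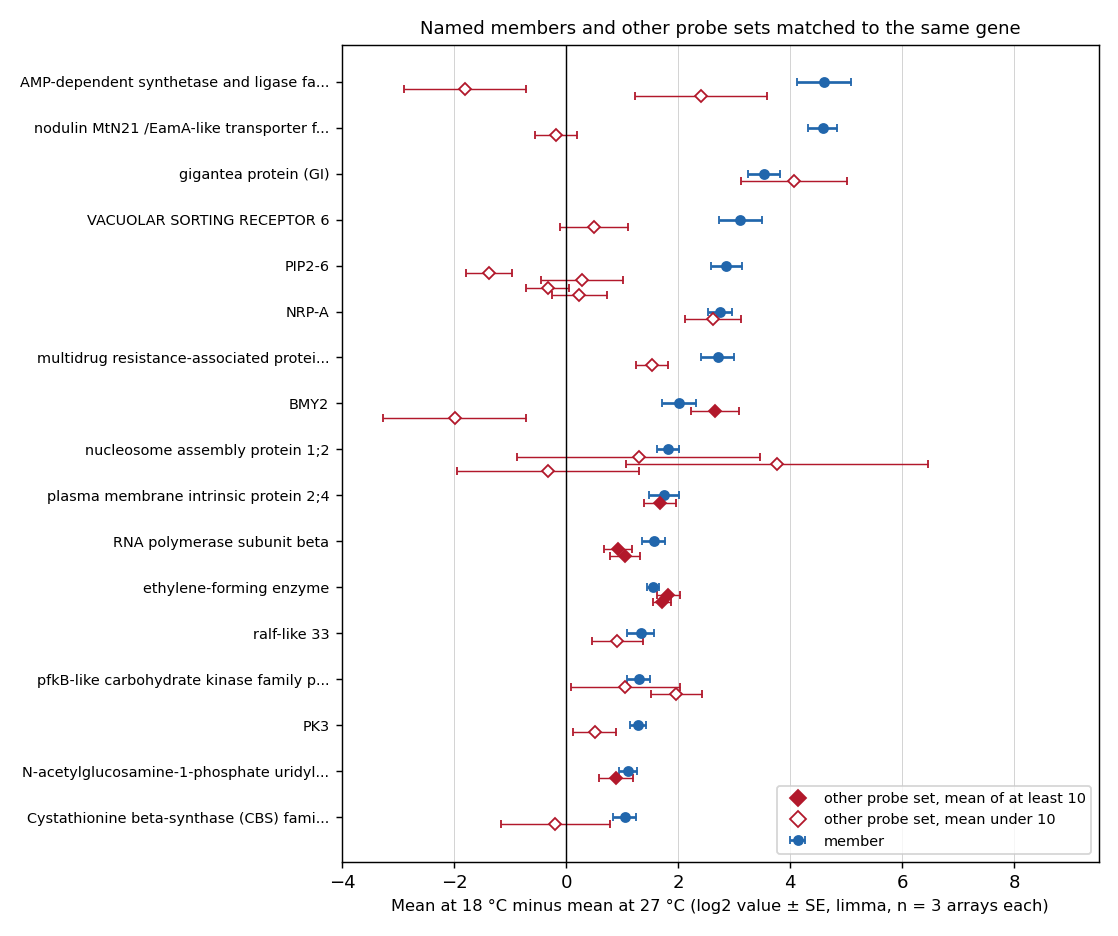
Mean at 18 °C minus mean at 27 °C (horizontal, log2 value ± SE of the variance-trend limma fit, n = 3 arrays each) for the 17 named members (blue circles) that have other probe sets of the same gene (red diamonds, filled where the mean over 9 arrays is at least 10). All filled diamonds lie above 0, while open ones lie on both sides of it, those of PIP2-6 between -1.38 and 0.28.

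The calls of non-members named above rest on the variance trend: of 28 such differences, 1, the higher reading of alpha-glucan phosphorylase 2, also passed with a common prior variance (adjusted p = 0.0237), and the rest had adjusted p values between 0.0537 and 0.442.

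All array medians at 18 °C lay below every array median at 23 °C and 27 °C. They lay between 7.89 and 8.01 at 18 °C, between 8.05 and 8.08 at 23 °C and between 8.05 and 8.11 at 27 °C, a mean shift of -0.12 at 18 °C from 27 °C. Some members had gaps between temperatures smaller than this shift, and with centred arrays 94 probe sets met the rule. Among probe sets averaging at least 10, as the members did, the median difference between 18 °C and 27 °C was 0.05. Within a temperature, the third leaflet at 27 °C was the lowest of the 3 in 33 of the 57 members, a position it held in 39.2% of all probe sets averaging at least 10, and the first leaflet at 18 °C was the highest in 26 (45.6%, beside 35.4%). Markers of green leaf were bright: all 19 probe sets had a mean of at least 10, with summed log2 levels of 20.26 to 20.36 at 18 °C, 20.94 to 21.09 at 23 °C and 21.21 to 21.27 at 27 °C. All 19 were called lower at 18 °C than at 27 °C, beside 0.845% of all probe sets. All 19 were also named by the study's annotation, which covers probe sets picked as changed on these same arrays. Nothing is read from that count for this reason. The 8 probe sets matched by seed words summed to 15.07 to 15.38 at 18 °C, 14.78 to 14.99 at 23 °C and 14.67 to 14.98 at 27 °C, and 1 was called higher at 18 °C than at 27 °C. Of these 2 carried plectin names, matched by their letters, and the 6 glycinin probe sets without them summed to 11.31 to 11.88 at 18 °C, 11.37 to 12.93 at 23 °C and 12.34 to 12.63 at 27 °C. The 5 probe sets matched by nodule words included the MtN21/EamA-like member, and without it they summed to 10.21 to 10.42, 10.19 to 10.77 and 10.98 to 11.43. The part of leaf composition in the members' values was not tested.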

How the data were processed

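RNA of 9 leaflets, 3 at each of 3 temperatures, was measured on the Affymetrix Soybean GeneChip. The authors removed probe pairs that hybridised weakly to bambara groundnut genomic DNA and made the deposited log2 values with RMA in the affy package, but the version of that step is not given in the sources used here. For the genomic DNA array no values were used. All 36578 soybean probe sets entered 1 model in limma 3.58.1 under R 4.3.3 (lmFit, then eBayes with a variance trend and robust settings, two-sided, 6 residual degrees of freedom), with Benjamini-Hochberg adjustment across all of them and calls at an adjusted p under 0.05. SEs are those of this fit. The code was tested on simulated data. With 3 arrays per temperature, the number of arrays limits the precision, and p-values reflect only how leaflets from 3 plants varied.

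The members, the gene lists and the choice of fit were made with earlier results of these data known. Named were the 25 named members with the largest difference between 18 °C and 27 °C, members held by any of 12 gene lists, further probe sets of those genes and members near the limits of the rule. The other 10 named members and the non-members of the lists were named after their values had been seen. Matching by transcript cluster was limited to clusters of up to 10 probe sets after a mixed cluster had been seen. Gene names came from the array annotation and from annotation tables of the study, used for names only. Arabidopsis functions stand as background. Sequences of the probe sets are not shown. Alternatives were a common prior variance, the methods' t-test (without the paper's filter on presence calls), array centring, quantile normalisation and a filter on dim probe sets. Others were a replicate block, only the 6 arrays compared, other limits of the rule and leaving out each of the 9 arrays.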

Additional observations from a re-analysis of the deposited data

How the results depend on the processing

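An uncalled further probe set of PIP2-6 (main difference 0.28) ranged between -0.44 (without 27 °C replicate 2) and 0.78 when 1 array was left out, and the uncalled companion of the MtN21/EamA-like transporter (main difference -0.19) between -0.36 and 0.062 (without 18 °C replicate 2). The uncalled NDHK probe set of the other orientation (main difference 0.43) ranged between -0.505 (without 27 °C replicate 3; -0.47 without 18 °C replicate 2) and 1.67.

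Counts below are higher, then lower, calls over all probe sets for 23 °C over 27 °C, 18 °C over 27 °C and 18 °C over 23 °C. The variance-trend limma fit gave 159 and 125, 469 and 309, and 201 and 144. A common prior variance gave 0 and 1, 22 and 16, and 0 and 2, with 0, 9 and 0 members, 0 further probe sets of members' genes in each contrast, and 11 higher and 1 lower among the gene lists at 18 °C over 27 °C. The methods' t-test gave 0 and 1, 0 and 0, and 0 and 3, with 0 members, 0 further probe sets and 0 list calls. Only the 6 arrays compared gave 93 and 66 for 23 °C over 27 °C, with 6 members, and 102 and 58 for 18 °C over 23 °C. A mean of at least 8 gave 242 higher for 23 °C over 27 °C and 308 higher for 18 °C over 23 °C, with 26 members there, and 12 further probe sets at 18 °C over 27 °C and 1 at 18 °C over 23 °C. Centring the arrays gave 22 members at 18 °C over 23 °C, 11 further probe sets at 18 °C over 27 °C, and 94 probe sets under the rule, 55 of them members. Quantile normalisation left 45 under the rule, 43 of them members. A difference of at least 2 left 21, and 7 in the falling counterpart. The cause of these shifts was not tested.

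Leaving out 1 array gave 64 to 148 higher and 29 to 100 lower calls for 23 °C over 27 °C, with 5 (without 23 °C replicate 3) to 13 members and 1 to 2 further probe sets. For 18 °C over 27 °C it gave 211 to 518 and 131 to 339, with 45 to 55 members, 2 to 8 further probe sets and 71 to 127 higher and 40 to 61 lower list calls. For 18 °C over 23 °C it gave 75 to 165 and 34 to 102, with 7 (without 23 °C replicate 3) to 15 members and 0 to 1 further probe sets. The rule held 63 to 110 probe sets and its falling counterpart 47 to 73, and 4 members were lost without 27 °C replicate 3, the most for any array. With fewer values in a group the demand for separate groups can only loosen. Members could therefore be lost only through the limits on means, and larger counts than the main 57 and 39 follow largely from the rule. No stability of the set is read from them.

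Replicate numbers share no stated plant. Among probe sets averaging at least 10, the deviations of same-numbered arrays had correlations of -0.033 to 0.21 and those of different-numbered arrays -0.18 to 0.12. Whether a shared number marks a shared plant was not tested. With the replicate block limma gave 136 and 94, 418 and 280, and 162 and 120 calls, with 14, 55 and 13 members.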
